A study of Mus musculus with 16 samples.

Results

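Aortas of ApoE-/- mice, a strain without apolipoprotein E, were compared for the effect of a Western diet that an early and a late time share. Mice entered the study at 8 weeks of age. Groups were Western diet for 6 weeks, normal purified diet for 6 weeks, Western diet for 22 weeks and normal purified diet for 22 weeks, so that the aorta came from mice of 14 or 30 weeks of age. Each group held 4 RNA-seq libraries, and the comparison set all 8 Western-diet libraries against all 8 normal-diet libraries, with time as a block. These were all 16 libraries of the series. Every animal shared the ApoE deficiency, which the genotype label calls a knockdown and the design text gives as ApoE-/-, and there was no wild-type aorta. The composition of either diet, the sex of the mice, and whether a library stands for 1 animal or a pool were not given in the sources used here. A p-value therefore measures only the spread between these libraries. Of 70603 deposited loci, 24091 named a gene and reached 1 FPKM in at least 4 libraries, and these were tested. The question was which loci moved in the same direction at both times.

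Apolipoprotein E is the ligand by which the liver takes up remnants of dietary and hepatic lipoproteins. Without it cholesterol-rich particles stay in plasma, enter the artery wall and are taken up by macrophages, and a diet rich in fat and cholesterol speeds this up. Cells loaded with lipid depend on lysosomal hydrolysis, on cholesterol export and on the chaperones that fold proteins in the cytosol and in the endoplasmic reticulum (ER). The aorta is mostly contractile smooth muscle, and it is surrounded by adventitia, brown and white fat, nerves and lymphoid tissue, any of which can enter a dissected sample.

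Libraries held between 45253433 and 81397840 deposited estimated counts, and all levels below are CPM, the count of a locus over that of its library, after scaling by the trimmed mean of M-values. The 21 contractile smooth muscle markers summed to between 7008 and 20710 CPM in the 16 libraries, so the labelled tissue was present in each. Markers of neighbouring tissues varied between single libraries. The 16 Schwann and nerve markers reached 1582 CPM in Western-diet library 2 and 1099 CPM in Western-diet library 4 of 6 weeks, against 124 to 605 CPM in the other 14 libraries. Markers of B and plasma cells reached 932 and 1954 CPM in normal-diet library 2 of 6 weeks and normal-diet library 4 of 22 weeks, against 70.6 to 446 CPM in the rest. The prefix of the library codes in the sample descriptions is the same for both diets of a time and differs between the times, so it cannot be told apart from time. Values at a single time are thus values within 1 prefix. The locus that holds the targeted gene also holds its neighbour Tomm40. Its level was 38.8 ± 3.02 and 36.6 ± 1.49 CPM in Western-diet and normal-diet libraries of 6 weeks, and at 89.4 ± 10.3 and 79.8 ± 9.80 CPM in those of 22 weeks (mean ± SD, n = 4 each), so it checks neither the genotype nor the diet.

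The shared effect was small in extent. With edgeR (quasi-likelihood test, p-values adjusted by Benjamini and Hochberg), 5 of 24091 loci passed at an adjusted p under 0.05 with the same sign at both times, which is 0.0208% of loci. Of these, 3 were higher (0.0125%) and 2 were lower (0.00830%) on Western diet. All 5 showed no overlap between the diets, since each Western-diet library lay beyond each normal-diet library at 6 weeks and again at 22 weeks. Over all loci tested, 78 (0.324%) were apart at both times in the same direction and 74 (0.307%) in opposite directions. The 5 were chosen by p on these same values, so their lack of overlap is a description only. At an unadjusted p under 0.001 there were 177 loci with the same sign at both times (0.735%), of which 85 were higher (0.353%) and 92 lower (0.382%) on Western diet, and 0 loci with opposite signs (edgeR; 2869 loci, or 11.9%, had an unadjusted p under 0.05). The p is that of the effect averaged over both times, in which opposite effects largely cancel. The 0 is thus close to fixed by the choice of loci and does not measure agreement between the times. The count of passing loci depended on the model and the tool, and which part of either sets it was not tested. The average of both diet effects in a model of 4 group means, fitted with the same tool, gave 68 loci (0.282%), of which 33 were higher (0.137%) and 35 lower (0.145%). DESeq2 with its Wald test gave 390. Without the library highest in lymphocyte markers of each group edgeR gave 9, and 2 of the 5 were among them. The count also moved when 1 library was left out. It was 1 without Western-diet library 4 of 6 weeks, Western-diet libraries 1 or 4 of 22 weeks, or normal-diet libraries 2 or 3 of 22 weeks. It was 2 without Western-diet library 2 or normal-diet library 1 of 6 weeks, and 3 without normal-diet libraries 3 or 4 of 6 weeks. It was 8 and 16 without Western-diet libraries 1 and 3 of 6 weeks, 11 without normal-diet library 1 of 22 weeks, and 80 without normal-diet library 4 of 22 weeks.

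Across all loci the effects of the diet at 6 and at 22 weeks were nearly unrelated. The signs of the log2 fold changes matched for 12395 loci (51.5%), with 5778 higher (24.0%) and 6617 lower (27.5%) at both times. Pearson's r between the fold changes was 0.057 and Spearman's rho was 0.048 over 24091 loci. These are descriptions across genes, which are not independent, and the comparisons at 6 and 22 weeks share no library. An unadjusted p under 0.05 at both times was found for 250 loci with the same sign (1.04%), namely 123 higher (0.511%) and 127 lower (0.527%) on Western diet, and for 211 loci with opposite signs (0.876%). Of those 211, 168 were lower at 6 weeks and higher at 22 weeks (0.697% of loci). Neither time alone gave many calls. At 6 weeks 68 loci passed (0.282%), 15 higher and 53 lower, and at 22 weeks 55 passed (0.228%), 42 higher and 13 lower. Of the 68 loci called at 6 weeks, 40 had the same sign at 22 weeks and 11 of these an unadjusted p under 0.05, while 4 had the opposite sign at that level. Of the 55 loci called at 22 weeks, 33 had the same sign at 6 weeks and 9 of these an unadjusted p under 0.05, while 5 had the opposite sign at that level. Over all loci the signs matched for 51.5%. With either sign, 2567 loci (10.7%) had an unadjusted p under 0.05 at 6 weeks and 3437 (14.3%) at 22 weeks (edgeR). A single locus, Hsd11b1, passed at both times.

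**Figure D1:**
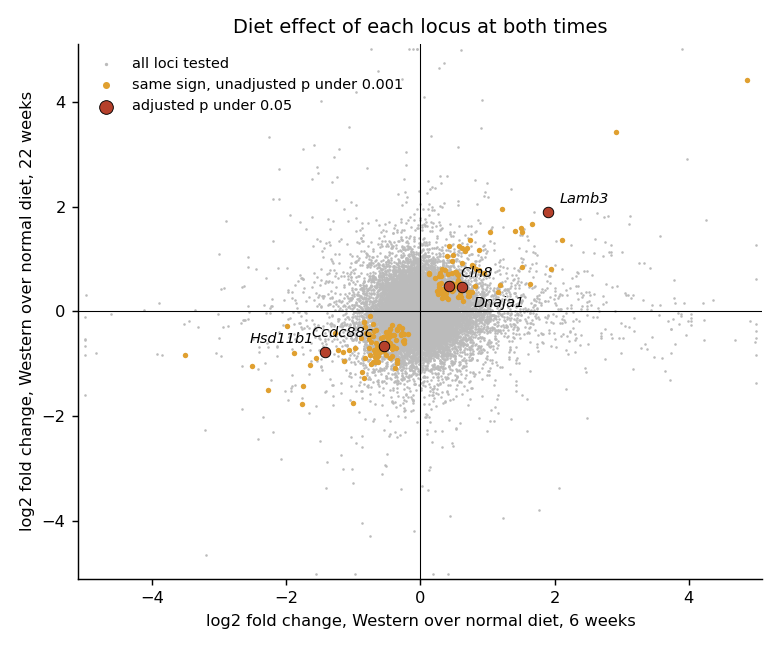
Log2 fold change of Western over normal diet at 6 weeks (x axis) and at 22 weeks (y axis) for the 24091 loci tested, 1 point a locus, with values beyond the frame drawn at its edge. The 177 loci with the same sign and an unadjusted p under 0.001 (orange) lie in the lower left and upper right because the same sign was required, and the 5 passing loci (red) are named.

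Hsd11b1, which encodes the ER enzyme that turns inert 11-keto glucocorticoids back into active ones (corticosterone in the mouse), was the locus with the lowest p and fell on Western diet at both times. At 6 weeks its level was 37.1, 40.1, 35.0 and 51.6 CPM in Western-diet libraries, against 111, 104, 109 and 116 CPM in normal-diet libraries. The 22-week values were 58.4, 71.8, 57.6 and 59.2 CPM in Western-diet libraries, against 113, 97.3, 126 and 88.0 CPM in normal-diet libraries. Every Western-diet library was thus below every normal-diet library of its time. The averaged log2 fold change was -1.10 ± 0.12 (SE; adjusted p = 0.00275, edgeR). It was -1.43 ± 0.13 at 6 weeks (adjusted p = 0.000235) and -0.78 ± 0.13 at 22 weeks (adjusted p = 0.0317), and the difference of both effects did not pass (0.65 ± 0.19, adjusted p = 0.18, edgeR). The locus (GRCm38, chromosome 1, 193221634 to 193268066, minus strand) also spans part of Lamb3 and 4930570N18Rik on the other strand. Whether the libraries kept strand is not given in the sources used here. Hsd11b1 passed in each of the 16 fits that left out 1 library, with adjusted p values between 0.00099 and 0.0172.

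Of the 20 measured genes of the glucocorticoid list, Hsd11b1 was the one that passed, and the list as a whole did not follow it. Its median log2 fold change was -0.01, the same as the -0.01 of all loci tested, with 0.38 at 6 weeks and -0.28 at 22 weeks. Same-sign members were 3 higher and 3 lower on Western diet. The receptor gene Nr3c1 had an averaged log2 fold change of 0.10, and the receptor's target genes Fkbp5, Tsc22d3 and Per1 had -0.29, 0.09 and -0.21. Cdkn1a, a cell cycle inhibitor, had 0.66 ± 0.20 (SE), with 0.996 at 6 weeks and 0.33 at 22 weeks.

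Ccdc88c, which encodes Daple, a Dishevelled-binding modulator of Wnt signalling, also fell. Its levels were 30.8, 25.2, 26.6 and 24.6 CPM in Western-diet libraries of 6 weeks, against 32.6, 44.5, 44.95 and 34.2 CPM in normal-diet libraries. At 22 weeks the values were 28.5, 33.4, 29.6 and 35.5 CPM on Western diet, against 43.4, 53.8, 50.6 and 52.1 CPM on normal diet. Groups did not overlap, but at 6 weeks Western-diet library 1 lay close to the lowest normal-diet library. The log2 fold change was -0.60 ± 0.09 on average (SE; adjusted p = 0.0333, edgeR), -0.54 ± 0.13 at 6 weeks and -0.65 ± 0.13 at 22 weeks. The locus (chromosome 12, 100911103 to 101029056) overlaps A630072L19Rik on the other strand.

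Cln8 encodes an ER protein that carries newly made lysosomal enzymes toward the Golgi, and loss of it causes a lysosomal storage disease of neurons. It rose on Western diet, with 27.7, 27.8, 32.0 and 30.1 CPM at 6 weeks, against 20.5, 21.0, 23.9 and 21.9 CPM on normal diet. Later, at 22 weeks, it stood at 48.6, 47.3, 45.9 and 46.9 CPM on Western diet, against 38.6, 33.4, 29.6 and 33.4 CPM on normal diet. The 4 Western-diet libraries of 22 weeks were close together (47.2 ± 1.12 CPM, SD) and all above the highest normal-diet library. The change was small and alike at both times, with a log2 fold change of 0.46 ± 0.06 on average (SE; adjusted p = 0.0317, edgeR), 0.43 ± 0.09 at 6 weeks and 0.48 ± 0.09 at 22 weeks. Cln8 lies on chromosome 8 (14881335 to 14895059, plus strand).

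Dnaja1, a J-domain partner that brings unfolded clients to Hsp70, rose as well. At 6 weeks its locus stood at 86.2, 122, 95.4 and 97.9 CPM on Western diet, against 69.8, 58.5, 73.7 and 58.6 CPM on normal diet. At 22 weeks it stood at 51.0, 48.5, 57.6 and 60.8 CPM on Western diet, against 43.6, 34.9, 40.2 and 39.1 CPM on normal diet. Levels at 22 weeks were lower in both diets, and within each time the diets did not overlap. The log2 fold change was 0.55 ± 0.09 on average (SE; adjusted p = 0.0488, edgeR), 0.62 ± 0.12 at 6 weeks and 0.47 ± 0.12 at 22 weeks. The locus (chromosome 4, 40722150 to 40737149, plus strand) also carries the microRNA gene Mir207. It overlaps Smu1 and Gm6297 on the other strand, and without the strand their reads cannot be told apart from those of Dnaja1.

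The fifth passing locus bears the name of Lamb3, the beta-3 chain of laminin 332, but holds no exon of it. It is an interval of 1509 bases inside a Lamb3 intron (chromosome 1, 193284995 to 193286503) with no annotated transcript. On Western diet it stood at 5.12, 10.8, 9.65 and 11.99 CPM at 6 weeks, against 2.66, 1.72, 3.09 and 2.52 CPM on normal diet. At 22 weeks the values were 5.11, 5.82, 9.95 and 7.81 CPM on Western diet, against 0.976, 0.886, 1.70 and 4.13 CPM on normal diet. The locus rose by 1.901 ± 0.30 on the log2 scale (SE; adjusted p = 0.0473, edgeR), with 1.91 at 6 weeks and 1.89 at 22 weeks. The same interval is listed a second time on the other strand. That copy held nearly the same values, except for 0 CPM in Western-diet library 1 of 6 weeks, and it did not pass (1.79 ± 0.62, adjusted p = 0.28, edgeR). The annotated Lamb3 locus was below the expression filter, so this call says nothing of Lamb3 mRNA.

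Apart from Hsd11b1, these calls stood near the threshold. With 1 library left out, Cln8 passed in 9 of 16 fits (edgeR). Its adjusted p was between 0.0505 and 0.072 without Western-diet library 4 or normal-diet libraries 1 or 4 of 6 weeks, or without Western-diet libraries 1 or 4 or normal-diet libraries 2 or 3 of 22 weeks. Ccdc88c passed in 7 fits, with adjusted p values of 0.0516 to 0.072 in the other 9, which left out Western-diet libraries 2 or 4 or normal-diet libraries 2 or 3 of 6 weeks, or Western-diet libraries 1, 3 or 4 or normal-diet libraries 2 or 3 of 22 weeks. The Lamb3 interval and Dnaja1 each passed in 5 fits, with adjusted p values up to 0.0929. Both failed without Western-diet libraries 2 or 4 or any normal-diet library of 6 weeks, and without Western-diet libraries 1, 3 or 4 or normal-diet libraries 2 or 3 of 22 weeks. No fold change of these loci turned its sign. In the model of 4 group means all 5 passed, with adjusted p values between 0.000124 and 0.0174 (edgeR).

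**Figure D2:**
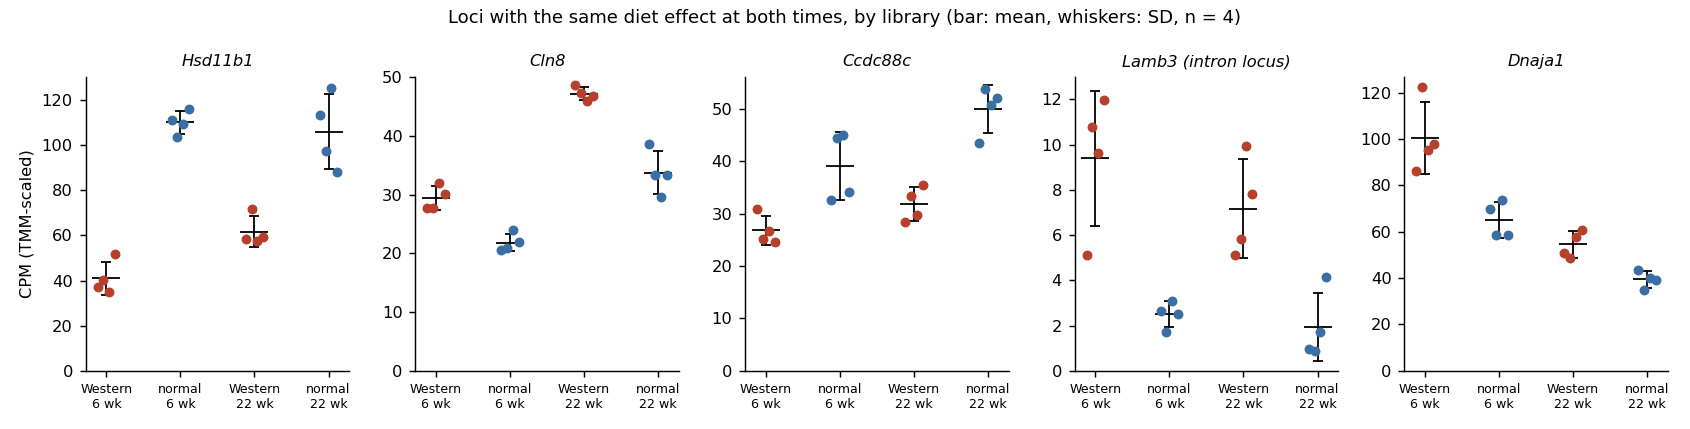
CPM of the 5 passing loci in each library, with Western-diet libraries in red and normal-diet libraries in blue, at 6 and 22 weeks. Bars are means and whiskers are SD (n = 4). In each panel and at each time the red points lie wholly above or wholly below the blue points.

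Chaperones were the group of genes whose members most often had the same sign at both times among the pathway lists. Of 26 measured cytosolic heat shock chaperones, 22 were higher on Western diet at both times and 2 lower, against 24.0% and 27.5% of all loci. The median log2 fold change was 0.31 on average, 0.28 at 6 weeks and 0.36 at 22 weeks, where all loci had -0.01, 0.00 and -0.03. Dnaja1 was the member that passed. At an unadjusted p under 0.05, 13 members were higher and 1 was lower, where the share over all loci was 5.94% higher and 5.97% lower. DESeq2 with its Wald test gave 3 passing members, and 14 higher and 0 lower at an unadjusted p under 0.05. Over all 24091 loci DESeq2 passed 223 higher and 167 lower, with 1741 higher and 1433 lower at that level. The same shares over all loci apply to the counts of the other lists in fits of all 16 libraries. Without the library highest in lymphocyte markers of each group, 16 chaperones were higher and 0 lower at an unadjusted p under 0.05 in edgeR, while the number passing was 0. Of all 24091 loci, that fit had 1739 higher and 1509 lower at that level. Same-sign loci in it were 6388 higher and 6645 lower at both times. Counts of other lists without these libraries are to be set against these.

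Among the heat shock members, Dnajb1, a second J-domain partner of Hsp70, stood at 39.1, 30.2, 29.8 and 24.5 CPM in Western-diet libraries of 6 weeks, against 18.4, 15.2, 17.8 and 18.5 CPM in normal-diet libraries. The 22-week values were 30.6, 33.6, 31.2 and 41.3 CPM on Western diet, against 38.4, 17.9, 21.1 and 20.2 CPM on normal diet. The groups were apart at 6 weeks, and at 22 weeks normal-diet library 1 lay among the Western-diet libraries. The averaged log2 fold change was 0.65 ± 0.15 (SE; adjusted p = 0.10, edgeR). Hspa4l, an exchange factor of Hsp70, had 0.58 ± 0.13, Hsph1, another exchange factor, 0.58 ± 0.17, and Hsp90aa1, the inducible Hsp90, 0.55 ± 0.19. Hspa8, the constitutive Hsp70, averaged 828 ± 187 CPM on Western and 571 ± 91.7 CPM on normal diet at 6 weeks, and 686 ± 173 and 512 ± 152 CPM at 22 weeks (SD, n = 4 each; log2 fold change 0.48 ± 0.16). Hspb6, a small heat shock protein of smooth muscle that the contractile list also holds, had -0.22 ± 0.10. Hsf1, the transcription factor of the heat shock response, had -0.16 ± 0.10, with 0.08 at 6 weeks and -0.40 at 22 weeks.

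The unfolded protein response of the ER, in which ER sensors raise chaperones and degradation factors when unfolded proteins accumulate, had a like pattern. Of 25 measured genes, 20 were higher on Western diet at both times and 1 lower, against 24.0% and 27.5% of all loci. The median log2 fold change was 0.28 on average, 0.19 at 6 weeks and 0.30 at 22 weeks. The number passing was 0 in edgeR, with 14 higher and 0 lower at an unadjusted p under 0.05, and 3 in DESeq2. Dnajc3, an ER co-chaperone that also holds back the kinase PERK, stood at 145, 150, 154 and 147 CPM on Western diet at 6 weeks, against 127, 117, 129 and 121 CPM on normal diet. Later, at 22 weeks, it stood at 119, 115, 143 and 143 CPM on Western diet, against 98.9, 101, 89.0 and 113 CPM on normal diet. The diets did not overlap at either time, and the log2 fold change was 0.32 ± 0.07 (SE; adjusted p = 0.085, edgeR). Sdf2l1, an ER chaperone cofactor, had the largest averaged fold change of the list, 0.82 ± 0.17 (adjusted p = 0.087). Edem1, which sends misfolded glycoproteins to degradation, had 0.42 ± 0.10 and did not overlap between the diets at either time. Hspa5, the ER Hsp70 known as BiP, had 0.52 ± 0.17, while Pdia3 and P4hb, which catalyse disulfide bonds, had 0.01 and -0.02.

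**Figure D3:**
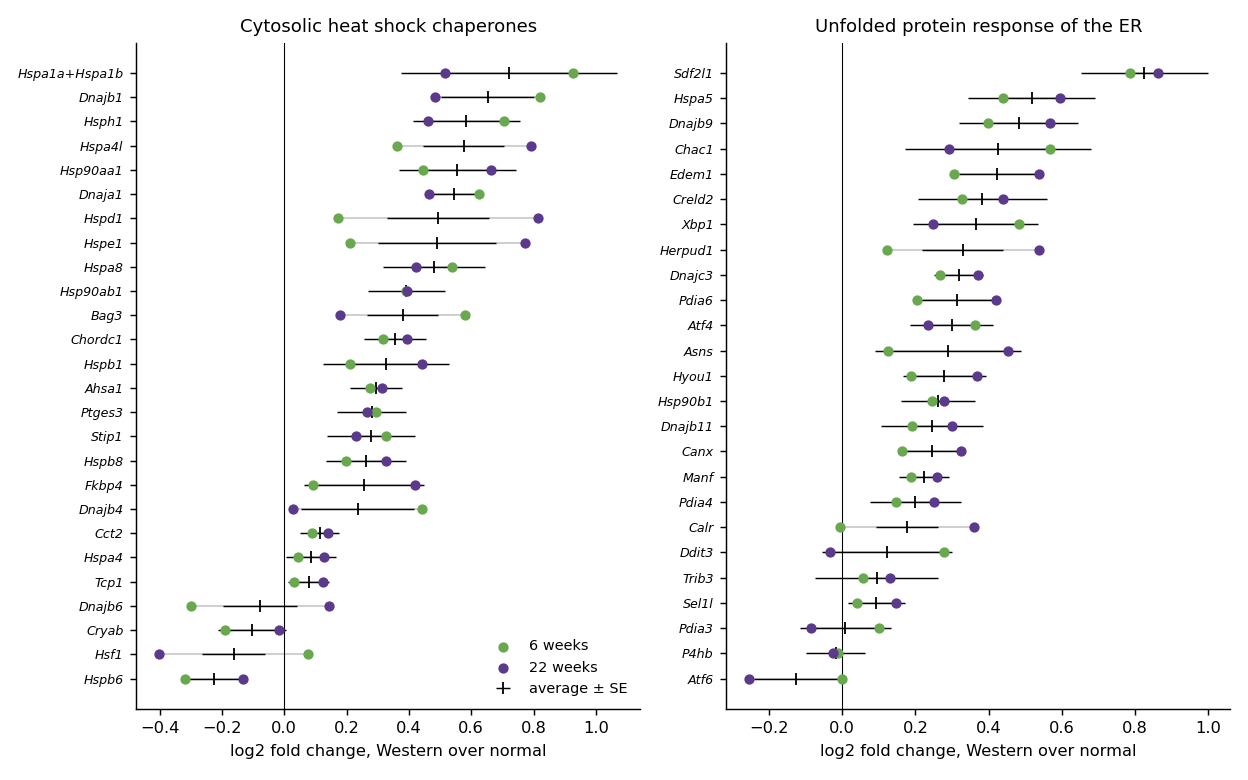
Log2 fold change of Western over normal diet for each measured cytosolic heat shock chaperone (left) and each gene of the unfolded protein response (right), at 6 weeks (green), at 22 weeks (purple) and averaged with its SE (black). Most points lie right of 0 at both times, 22 of 26 genes on the left and 20 of 25 on the right.

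Promoter sequence is shown for Dnaja1 and for the 3 ER genes with an unadjusted p under 0.001, because these chaperone genes moved in the same direction. Each line gives the 250 bases before the RefSeq start site (GRCm38.p6), written in the direction of the gene, and all 4 genes were found in the promoter table. Capitals mark CCAAT and CCACG on either strand (as ATTGG and CGTGG), the outer parts of the ER stress element. The windows are chr4:40722672-40722921 (plus strand), chr16:17132384-17132633 (minus), chr14:118937682-118937931 (plus) and chr6:108828391-108828640 (plus).
Dnaja1: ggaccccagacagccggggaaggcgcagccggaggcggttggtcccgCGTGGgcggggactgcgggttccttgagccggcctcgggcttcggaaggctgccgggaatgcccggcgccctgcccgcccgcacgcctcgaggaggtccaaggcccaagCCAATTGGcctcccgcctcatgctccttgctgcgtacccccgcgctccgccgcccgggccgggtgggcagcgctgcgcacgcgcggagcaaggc
Sdf2l1: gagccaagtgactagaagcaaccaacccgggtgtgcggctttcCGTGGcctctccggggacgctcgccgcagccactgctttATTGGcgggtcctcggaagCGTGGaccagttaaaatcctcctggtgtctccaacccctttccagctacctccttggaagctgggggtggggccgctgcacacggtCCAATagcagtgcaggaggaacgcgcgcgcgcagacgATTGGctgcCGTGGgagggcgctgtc
Dnajc3: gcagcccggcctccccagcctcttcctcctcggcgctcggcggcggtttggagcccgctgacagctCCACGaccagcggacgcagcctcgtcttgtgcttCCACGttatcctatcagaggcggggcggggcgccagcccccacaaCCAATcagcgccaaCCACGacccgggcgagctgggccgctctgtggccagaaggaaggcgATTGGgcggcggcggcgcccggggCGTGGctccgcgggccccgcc
Edem1: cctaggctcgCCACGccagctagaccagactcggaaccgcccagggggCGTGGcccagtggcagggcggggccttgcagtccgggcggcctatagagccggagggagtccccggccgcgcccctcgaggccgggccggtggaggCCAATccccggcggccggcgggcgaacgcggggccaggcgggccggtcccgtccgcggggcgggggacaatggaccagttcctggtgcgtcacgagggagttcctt

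The whole ER stress element, in which CCAAT and CCACG stand at a fixed spacing, was searched on both strands and found in 1 of these windows, that of Dnajc3, where it starts 105 bases before the start site. It was present in 0.113% of 32851 promoter windows of the same length in the table. Its part CCACG occurred in 28.3% of all windows and in each of the 4 shown, with 1 copy in Dnaja1, 3 in Sdf2l1, 4 in Dnajc3 and 2 in Edem1. CCAAT occurred in 33.8% of all windows, and the Dnaja1 window held it once on each strand in overlap. A heat shock element written as GAANNTTC or TTCNNGAA, which 12.8% of windows held, was not among the letters of these 4. A match is a description of the letters only.

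The other genes described next had the same sign at both times and an unadjusted p under 0.001 for the averaged effect. They did not pass the adjustment, so their values are given as measurements. On the higher side stood Dhrs9, a retinol dehydrogenase. At 6 weeks it had 35.5, 65.3, 45.4 and 80.1 CPM on Western diet, against 29.7, 20.7, 14.0 and 20.5 CPM on normal diet. At 22 weeks it had 14.7, 19.1, 14.9 and 10.9 CPM on Western diet, against 5.86, 1.98, 4.44 and 8.43 CPM on normal diet. Its groups did not overlap, although the levels at 22 weeks were lower in both diets (log2 fold change 1.47 ± 0.25, SE; adjusted p = 0.0593, edgeR). Cntfr, the binding subunit of the receptor for ciliary neurotrophic factor, had 6.78, 18.3, 11.3 and 11.2 CPM on Western diet at 6 weeks, against 3.12, 2.70, 2.71 and 3.80 CPM on normal diet. The 22-week values were 7.70, 6.65, 13.3 and 6.93 CPM on Western diet, against 4.12, 4.45, 4.76 and 6.47 CPM on normal diet. The groups were again apart at both times, with 1.95 at 6 weeks and 0.81 at 22 weeks (averaged 1.38 ± 0.25, adjusted p = 0.0593, edgeR; p of the difference 0.012 unadjusted and 0.26 adjusted).

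Anxa8, a phospholipid-binding annexin, and Slc27a2, a fatty acid transporter and very long-chain acyl-CoA synthetase, had averaged log2 fold changes of 0.84 ± 0.17 and 1.03 ± 0.24 (SE). Neither overlapped between the diets at either time, but the nearest libraries almost touched. Anxa8 had 3.496 CPM in the lowest Western-diet and 3.484 CPM in the highest normal-diet library of 6 weeks, and Slc27a2 had 38.09 and 38.08 CPM in those of 22 weeks. Slc27a2 averaged 109 ± 21.3 CPM on Western and 59.1 ± 7.999 CPM on normal diet at 6 weeks, and 46.4 ± 10.3 and 20.4 ± 13.2 CPM at 22 weeks (SD, n = 4 each). In the remaining higher genes the diets overlapped at 1 time or at both. Pon1, the paraoxonase that travels on high-density lipoprotein, had 1.51 ± 0.28, with 1.51 at 6 weeks and 1.52 at 22 weeks. Lncbate10, a long noncoding RNA of brown fat, had 1.58 ± 0.37. Cd274, which encodes the checkpoint ligand PD-L1, had 0.83 ± 0.18, and Col11a2, a chain of cartilage collagen, 0.82 ± 0.20. The adipocyte adrenergic receptor gene Adrb3 had 0.91 ± 0.22, with 0.57 at 6 weeks (unadjusted p = 0.065, edgeR) and 1.24 at 22 weeks. S100b, made by Schwann cells and adipocytes, had 0.84 ± 0.17, with 0.43 at 6 weeks and 1.25 at 22 weeks.

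On the lower side Ptges, the inducible synthase of prostaglandin E2, had 7.22, 2.74, 5.34 and 5.83 CPM on Western diet at 6 weeks, against 16.4, 15.1, 16.7 and 13.9 CPM on normal diet. Later, at 22 weeks, it had 18.6, 25.2, 15.9 and 14.8 CPM on Western diet, against 43.7, 29.4, 43.2 and 20.9 CPM on normal diet. The diets were apart at 6 weeks, and at 22 weeks normal-diet library 4 lay below the highest Western-diet library (averaged log2 fold change -1.22 ± 0.21, SE; adjusted p = 0.0593, edgeR). Rfx2, a transcription factor of ciliary genes, had -0.87 ± 0.20, with no overlap at either time, and its Western-diet library 3 of 6 weeks stood at 12.05 CPM beside 42.0 to 42.6 CPM in the other 3. Lepr, the leptin receptor, had -0.90 ± 0.22, Serpina3c, a serine protease inhibitor, -1.04 ± 0.25, and Rtn4rl2, a Nogo receptor homologue, -1.07 ± 0.19. Diets overlapped for Lepr at both times, for Serpina3c at 22 weeks and for Rtn4rl2 at 6 weeks. Rtn4rl2 was low at 6 weeks, with 0.203 to 0.824 CPM over both diets. Atcayos, which is antisense to Atcay and overlaps Nmrk2, had -0.84 ± 0.14 and no overlap at either time. Without the strand, its reads cannot be told apart from those of these partners.

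Several of the lower loci are not ordinary mRNAs. A locus of 659 bases inside a Cnst intron, listed on the strand opposite to Cnst, had -0.97 ± 0.17 and no overlap at either time, with 1.24 to 2.21 CPM on Western and 2.80 to 4.16 CPM on normal diet at 6 weeks. At 22 weeks it had 1.08 to 1.62 CPM on Western and 1.73 to 2.86 CPM on normal diet. Of the 2 loci named after the transketolase gene Tkt, 1 lies in an intron of it and the other 791 bases outside it, and they had -1.34 ± 0.26 and -1.58 ± 0.31. The pseudogene Rpl10-ps1, whose reads may belong to other copies of Rpl10, had -1.77 ± 0.40, and AA914427 had -2.16 ± 0.49, with -3.52 at 6 weeks and -0.84 at 22 weeks. Mir3081 is an 84-base hairpin on the same strand as its host gene Boc. It had 0.0263 to 0.0568 CPM on Western and 0.12 to 0.253 CPM on normal diet at 6 weeks, and 0.284 to 0.377 and 0.448 to 0.943 CPM at 22 weeks. At levels this low no fold change is given.

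The lysosomal list holds genes for hydrolases, membrane proteins and the proton pump of the lysosome. Of 39 measured members, 26 were higher and 1 was lower on Western diet at both times, against 24.0% and 27.5% of all loci. Their median log2 fold change was 0.18 on average, 0.03 at 6 weeks and 0.27 at 22 weeks. In edgeR 0 passed, 17 were higher and 0 lower at an unadjusted p under 0.05, and DESeq2 gave 5 passing members. Gla, which removes terminal galactose from glycolipids, had an averaged log2 fold change of 0.49 ± 0.13 (SE), and Atp6v0d2, a subunit of the proton pump that macrophages and osteoclasts use, 1.28 ± 0.47. Without the library highest in lymphocyte markers of each group, 10 lysosomal genes were higher at an unadjusted p under 0.05 and 20 were higher at both times. Of 33 autophagy genes, 18 were higher and 3 lower at both times, with a median of 0.06. Wipi2, which recruits the conjugation machinery to the forming autophagosome, had the lowest p of them (0.48 ± 0.13).

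Macrophage markers were higher on Western diet in part. Of 22 general markers, 13 were higher and 2 lower at both times (median log2 fold change 0.45), and of 20 lipid-laden macrophage markers 12 were higher and 0 lower (median 0.28, with 0.12 at 6 weeks and 0.72 at 22 weeks). Among all loci, 24.0% were higher and 27.5% lower at both times. The summed lipid-laden markers had medians of 5366 CPM on Western and 6262 CPM on normal diet at 6 weeks, and of 7772 and 4969 CPM at 22 weeks, so the sums lay in opposite directions at the 2 times. This list shares Fabp4 and Lpl with the white fat list. Summed white fat markers had medians of 7175 and 8020 CPM at 6 weeks, and of 8250 and 6683 CPM at 22 weeks. How much of the lipid-laden sum comes from fat was not tested, so it does not measure foamy macrophages alone. In edgeR 0 members of either list passed, with 10 of each higher at an unadjusted p under 0.05 and 1 general marker lower. DESeq2 passed 2 general and 1 lipid-laden marker. Ms4a7, a membrane protein of macrophages, had 7.92, 4.71, 17.8 and 7.20 CPM on Western diet at 6 weeks, against 4.85, 3.79, 6.09 and 3.60 CPM on normal diet. Later, at 22 weeks, it had 30.8, 17.7, 19.3 and 19.8 CPM on Western diet, against 9.09, 5.504, 10.9 and 5.34 CPM on normal diet. The diets overlapped at 6 weeks and were apart at 22 weeks (averaged 1.27 ± 0.26, SE; adjusted p = 0.074, edgeR). The activating antibody receptor gene Fcgr3 had 0.64 ± 0.15. Trem2, a lipid receptor of foamy macrophages, averaged 3.32 ± 1.92 CPM on Western and 2.17 ± 1.60 CPM on normal diet at 6 weeks, and 48.0 ± 6.605 and 19.5 ± 8.76 CPM at 22 weeks (SD, n = 4 each). Timd4, a marker of resident macrophages, went against the list with -1.66 ± 0.54. In bulk tissue, more cells of a type and more RNA per cell cannot be told apart. Only 4 lipid-laden markers were higher at both times without the library highest in lymphocyte markers of each group.

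Lipid genes did not share 1 pattern. Abcg1, which exports cholesterol to high-density lipoprotein and is a target of the sterol receptor LXR, had 50.7, 43.9, 38.6 and 43.1 CPM on Western diet at 6 weeks, against 25.7, 39.9, 31.1 and 26.9 CPM on normal diet. At 22 weeks it had 221, 171, 215 and 184 CPM on Western diet, against 134, 82.0, 131 and 120 CPM on normal diet. At 22 weeks the diets were apart, and 1 normal-diet library lay within the Western-diet range at 6 weeks (averaged 0.64 ± 0.12, SE; adjusted p = 0.059, edgeR). Of 14 efflux and LXR genes, 7 were higher and 1 lower at both times (median 0.14). Of 23 genes of cholesterol synthesis and uptake, 14 were higher and 0 lower at both times (median 0.30), with 4 higher and 0 lower at an unadjusted p under 0.05. Insig1, which holds back sterol synthesis, had the lowest p of that list, with 0.08 at 6 weeks and 1.71 at 22 weeks. Fatty acid synthesis stood apart in time. Its 15 genes had a median of -0.73 at 6 weeks and 0.26 at 22 weeks, and 12 of them had opposite signs, as had 11696 of all 24091 loci. Me1, a malic enzyme that supplies reducing power for lipid synthesis, had -1.80 at 6 weeks and -0.22 at 22 weeks.

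Of 21 contractile smooth muscle genes, 17 were lower and 0 higher on Western diet at both times, against 27.5% and 24.0% of all loci. Signs were opposite in 4, and the median log2 fold change was -0.33 on average, -0.26 at 6 weeks and -0.36 at 22 weeks. In edgeR 0 passed and 12 were lower at an unadjusted p under 0.05, and DESeq2 passed 0 members, with 10 at that level. Tpm2, a tropomyosin, had the lowest p (-0.41 ± 0.14, SE). Myh11, the smooth muscle myosin heavy chain, averaged 2606 ± 277 CPM on Western and 3171 ± 379 CPM on normal diet at 6 weeks, and 1906 ± 347 and 2715 ± 909 CPM at 22 weeks (SD, n = 4 each). Spread between libraries exceeded the gap between diets at 22 weeks, where the summed markers ranged from 7008 to 12256 CPM on Western and from 9186 to 17594 CPM on normal diet. At 6 weeks they ranged from 14207 to 16035 CPM on Western and from 15682 to 20710 CPM on normal diet. Of 16 markers of modulated and cartilage-like smooth muscle, 9 were higher and 2 lower at both times (median 0.40), and 4 higher and 3 lower (median 0.24) without the library highest in lymphocyte markers of each group. Their summed level had medians of 910.0 CPM on Western and 917 CPM on normal diet at 6 weeks, and of 2252 and 1206 CPM at 22 weeks. Lum, a matrix proteoglycan that is also listed for fibroblasts and matrix, had the lowest p among them (0.60 ± 0.17).

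Genes of the circadian clock did not share 1 direction. The clock is a loop in which Arntl and Npas2 switch on Per and Cry genes, whose products shut it off, and it drives output factors such as Dbp, Tef and Hlf. Of 19 measured genes, 7 were lower (36.8%) and 4 higher (21.1%) on Western diet at both times, against 27.5% and 24.0% of all loci. Their median log2 fold change was -0.16. In edgeR 0 passed, with 6 lower and 3 higher at an unadjusted p under 0.05, where all loci had 5.97% and 5.94%. DESeq2 passed 5, all lower. Hlf had 14.7, 11.9, 13.6 and 13.1 CPM on Western diet at 6 weeks, against 28.6, 35.5, 31.2 and 33.6 CPM on normal diet. The 22-week values were 8.10, 12.2, 15.1 and 11.3 CPM on Western diet, against 14.6, 18.7, 15.8 and 13.3 CPM on normal diet. The diets were far apart at 6 weeks and overlapped at 22 weeks (averaged -0.85 ± 0.16, SE; adjusted p = 0.059, edgeR). Per2 had -0.83 ± 0.18, Cry2 -0.48 ± 0.12 and the locus that joins Dbp with Car11 -1.06 ± 0.28. The activators Arntl and Npas2 had 0.78 ± 0.26 and 0.56 ± 0.17, and Nfil3, a repressor that opposes Hlf and Dbp, 1.12 ± 0.42. Each of these 7 had the larger absolute fold change at 6 weeks. The hour at which tissue was taken is not given in the sources used here.

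Genes of immature lymphocytes were high in the Western-diet libraries, with large differences between single libraries. Dntt, the polymerase that adds bases to rearranging antigen receptor genes in immature lymphocytes, had 65.4, 11.9, 2.80 and 2.47 CPM on Western diet at 6 weeks, against 0.711, 0.73, 0.686 and 0.684 CPM on normal diet. Later, at 22 weeks, it had 19.7, 2.46, 3.86 and 11.2 CPM on Western diet, against 0, 0, 0.284 and 1.41 CPM on normal diet. Each Western-diet library was above each normal-diet library, and library 1 was the highest of its Western-diet group at both times (averaged 4.65 ± 0.88, SE; adjusted p = 0.0593, edgeR). The locus that joins Rag1, the recombinase of the same cells, with a neighbouring gene had 322, 69.2, 24.3 and 23.0 CPM on Western diet at 6 weeks, against 14.7, 12.52, 17.6 and 13.5 CPM on normal diet. At 22 weeks it had 111, 14.1, 14.8 and 54.0 CPM on Western diet, against 3.99, 3.57, 4.05 and 6.49 CPM on normal diet (averaged 3.16 ± 0.56, adjusted p = 0.0593, edgeR).

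Of 24 listed T cell, NK cell and thymocyte markers 15 were measured. On Western diet 11 of them were higher and 1 lower at both times (median 1.65), against 24.0% and 27.5% of all loci. In edgeR 0 passed and 8 were higher at an unadjusted p under 0.05, and DESeq2 passed 3. The summed level of the list ranged from 96.2 to 910 CPM on Western and from 42.9 to 113 CPM on normal diet at 6 weeks, and from 79.1 to 407 CPM and from 25.1 to 248 CPM at 22 weeks. Without the library highest in lymphocyte markers of each group, all 15 were higher at both times and at an unadjusted p under 0.05, and the median was 1.83. Those libraries were picked by lymphocyte markers themselves, which narrows the spread of the same markers, so these counts are no separate support. B and plasma cell markers went the other way, with 9 of 10 measured members lower at both times (median -1.57). Fcmr, a receptor for IgM, had the lowest p of them, with 0 to 0.237 CPM on Western diet and 0.241 to 12.4 CPM on normal diet at 6 weeks. Without the same 4 libraries 1 B cell marker was lower at both times and 4 were higher, and the median was 0.16. The same limit holds for these B cell counts. The 4 libraries left out include the normal-diet libraries with 932 and 1954 CPM of B cell markers. The part of lymphoid tissue in the other loci described here was not tested, beyond the counts given without these libraries.

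**Figure D4:**
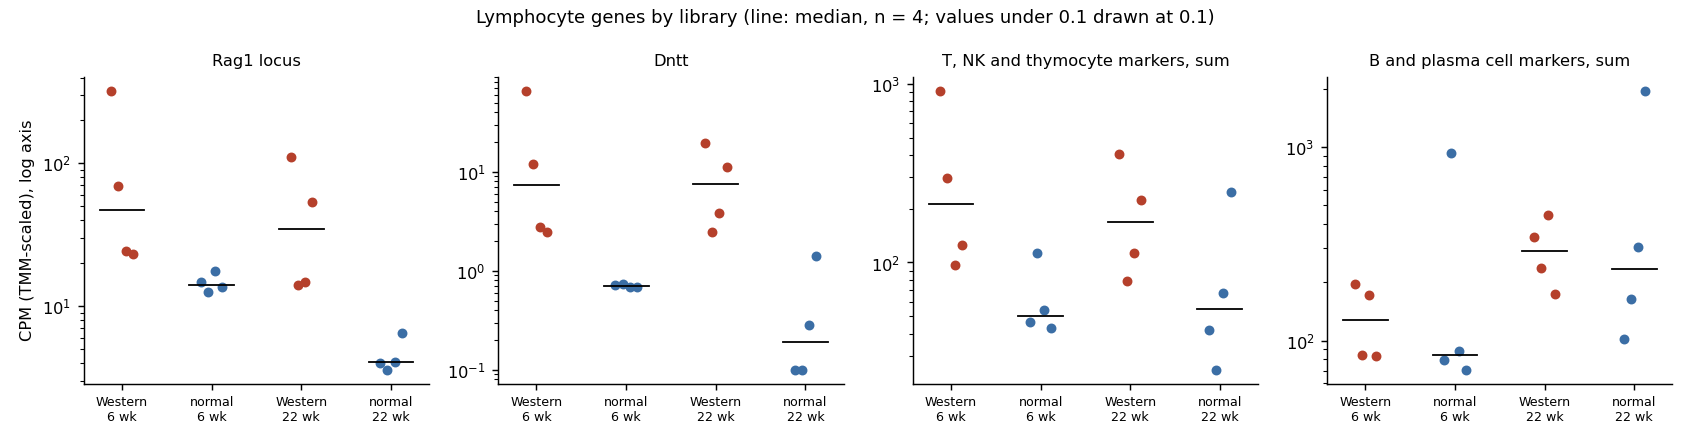
CPM on a log axis of the Rag1 locus, of Dntt, of the summed T cell, NK cell and thymocyte markers and of the summed B and plasma cell markers in each library, Western diet in red and normal diet in blue, with the median as a line and values under 0.1 drawn at 0.1. Within each time Dntt and the Rag1 locus are higher in every Western-diet library than in any normal-diet library, while 2 normal-diet libraries hold the highest B cell sums, at 932 and 1954 CPM.

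Other lists had fewer members with the same sign, and of all 24091 loci 11696 had opposite signs. Oxidative phosphorylation subunits had a median log2 fold change of -0.15 at 6 weeks and 0.93 at 22 weeks, with opposite signs in 25 of 30 genes (lowest p Ndufv1, with 0.09 and 0.90). Skeletal muscle genes had -1.53 and 2.65 and opposite signs in 13 of 15 (lowest p Tcap, -0.70 ± 0.25, SE). Brown fat markers had 0.03 and 0.93. The locus of lowest p counted there carries the name of Prdm16, a regulator of brown fat identity, but lies on the other strand of its intron with no exon base and no annotated transcript (-0.47 ± 0.13), so it does not measure Prdm16 mRNA. Matrix genes had a median of 0.03, with 14 of 38 higher and 8 lower at both times. This balance turned to 9 higher and 12 lower (median -0.01) without normal-diet library 4 of 22 weeks, and to 7 higher and 15 lower (median -0.06) without the library highest in lymphocyte markers of each group. All 24091 loci had 6130 higher and 6420 lower at both times in the first of these fits, and 6388 and 6645 in the second. In the matrix list Col12a1, a fibril-associated collagen, had 0.43 ± 0.11. Cytokine, chemokine and inflammasome genes had a median of 0.16, with 12 of 24 higher and 5 lower, and Cxcl16, a chemokine that also binds oxidised lipoprotein, at 0.69 ± 0.20. Endothelial markers had a median of -0.02, with 2 of 18 higher and 5 lower (6 and 4 without the lymphocyte-rich libraries), and Plvap, of endothelial diaphragms, at -0.34 ± 0.11. Fibroblast markers had 0.07, with Clec3b at 0.24 ± 0.07, and genes of the oxidant response had 0.07, with the peroxidase gene Prdx1 at 0.49 ± 0.16. White fat markers had 0.09 and markers of blood cells -0.25. Markers of dendritic cells had 0.11, with 4 of 18 higher and 5 lower at both times, but 14 higher and 1 lower without the lymphocyte-rich libraries. Markers of Schwann and nerve cells had 0.18, and 0.05 without those libraries. The 5 markers of cardiac muscle had 0.04, but 1.61 without normal-diet library 4 of 22 weeks alone. Immediate early genes had 0.04, with Klf4 at 0.42 ± 0.17, and markers of dividing cells 0.41, with the kinase gene Plk1 at 1.08 ± 0.43, 1.93 at 6 weeks and 0.27 at 22 weeks. The median of the dividing cell markers was 0.07 without the lymphocyte-rich libraries, of which Western-diet library 1 of 6 weeks held 363 CPM of these markers.

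**Figure D5:**
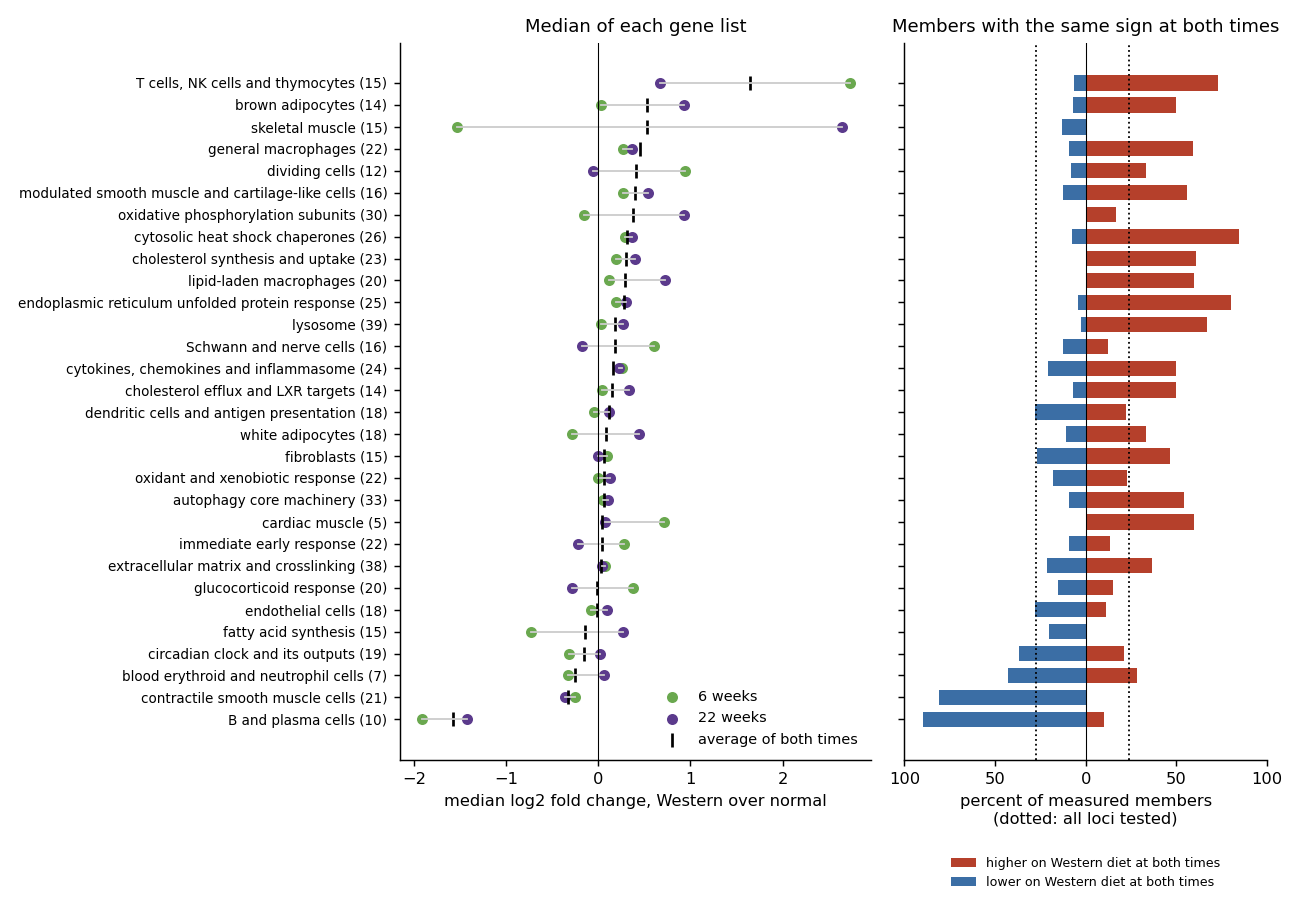
For each gene list (measured members in parentheses), the median log2 fold change of Western over normal diet at 6 weeks, 22 weeks and averaged (left), and the percent of members higher (red) or lower (blue) on Western diet at both times (right), with dotted lines at the 24.0% and 27.5% of all loci tested. Cytosolic chaperones reach 84.6% higher, the unfolded protein response 80.0% higher and contractile smooth muscle genes have 17 of 21 lower.

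Loci with and without an annotated transcript differed in direction. The 15701 loci with one had a median log2 fold change of 0.02, and at an unadjusted p under 0.001 with the same sign 81 were higher and 51 lower on Western diet. The 8390 loci without one had a median of -0.08, with -0.02 at 6 weeks and -0.15 at 22 weeks, and 4 were higher and 41 lower. Of these 8390, 6924 lay wholly in introns and touched no annotated exon, and they held 38 of the 41. Loci without an annotated transcript took 9.63 ± 0.51% of counts in Western-diet and 9.39 ± 0.27% in normal-diet libraries of 6 weeks, and 6.71 ± 0.55% and 7.89 ± 0.47% in those of 22 weeks (SD, n = 4 each). At 22 weeks the diets did not overlap in this share. When loci with an annotated transcript were tested alone in edgeR, 24 passed with the same sign at both times, and 4 of the 5 loci above were among them, the exception being the Lamb3 interval, which was not in that test.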

How the data were processed

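RNA-seq of 16 aorta libraries was analysed from 1 deposited table that lists estimated counts and FPKM per locus, per the file headers. Reads were trimmed with cutadapt 1.9 and checked with FastQC, and the build was GRCm38, per the submitters' processing notes. The aligner, counter, annotation and strand setting were not given in the sources used here. Estimated counts deposited by the authors are whole numbers that pile up at steps of about 4 (35277 values of 4, 14716 of 3 and 9394 of 5), so 1 unit may not be 1 fragment. FPKM deposited by the authors reads 1e-04 where the count is 0. Columns were matched to samples by title, since the description of 1 sample points to the column of another replicate. The 37 mitochondrial loci hold 0 counts.

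The 3714 loci with no gene name held 0.606% of counts and were left out. The 24091 loci with a name and an FPKM of at least 1 in at least 4 libraries held 98.0% of counts, and 1438 of them join several genes. edgeR 4.0.16 in R 4.3.3 fitted diet with time as a block (TMM, quasi-likelihood), and a model of 4 group means gave each time and the difference of both effects. A call needed an adjusted p under 0.05 (Benjamini-Hochberg over all loci tested) and the same sign at both times. limma 3.58.1 on log2(FPKM + 0.5) and DESeq2 1.42.0 were alternatives, beside other filters, scalings and libraries left out. The number of calls depended on the scale of the deposited counts, with 5 shared loci as deposited and 13 with counts divided by 4 (edgeR). The steps were tested on simulated data. Groups of 4 libraries were plotted with matplotlib 3.10.9.

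Fewer than 10 loci passed, so named genes were taken from the 177 loci with an unadjusted p under 0.001 and the same sign. Of those with 1 official symbol and a mean FPKM of at least 1, these were the 12 in each direction with the largest smaller fold change of both times, the 5 in each direction with the lowest p, list members, and for each list the member of lowest p. Other list members, the second listing of the Lamb3 interval and the promoters shown were chosen after their values were seen. The loci and gene lists were chosen with earlier results of these data known. Overlaps with genes come from GENCODE M21 and promoters from RefSeq. Some loci that this rule or these lists cover are not reported here. For a gene with several loci the one of highest mean FPKM stands in its list, and for some members this locus has no annotated transcript.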

Additional observations from a re-analysis of the deposited data

Results flagged for a closer look

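In 36 of 316 groups of 4 libraries, 1 library stood far from the other 3 by Dixon's criterion, where chance gives about 15.8. Values are CPM. In Western-diet libraries of 6 weeks the highest library stood at 65.4 for Dntt (others 2.47 to 11.9), 322 for the Rag1 locus, 145.0 for Edem1, 141 for Insig1, 40.3 for the intronic Tkt locus, 6.20 for Plk1, 6.02 for Tcap and 0.0568 for Mir3081. The lowest stood at 12.05 for Rfx2 (others 42.0 to 42.6). In the same group the dividing cell markers reached 363 in 1 library, the fibroblast markers stood at 2922 in the lowest, and the lowest depth was 64.6 M estimated counts (others 70.5 to 71.6 M). In Western-diet libraries of 22 weeks the highest library stood at 30.8 for Ms4a7, 13.3 for Cntfr, 41.4 for Cd274, 71.8 for Hsd11b1 (others 57.6 to 59.2), 474 for Adrb3, 77.8 for Col12a1, 15.7 for Tcap and 117.0 for Actc1. Cardiac muscle markers reached 642 and blood markers 2414 there.

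In normal-diet libraries of 6 weeks the lowest library stood at 17.1 for Klf4 and the highest at 1.64 for Cd209a, 12.4 for Fcmr and 5.66 for Actc1. Summed markers reached 932 for B and plasma cells (others 70.6 to 88.7), 113 for T cells, NK cells and thymocytes and 1574 for dendritic cells, and endothelial markers stood at 1323 in the lowest library. In normal-diet libraries of 22 weeks the highest library stood at 38.4 for Dnajb1 (others 17.9 to 21.1), 6.49 for the Rag1 locus, 122 for Prdx1, 54.2 for Actc1, 94.3 for the joined Apoe and Tomm40 locus and 1954 for the B and plasma cell markers.

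The diet effect differed between 6 and 22 weeks at 44 loci (0.183%; edgeR, adjusted p under 0.05), none of which is named here, where the lowest adjusted p of the difference was 0.0974. Without overlap at either time, 74 loci (0.307%) lay in opposite directions, which was not tested, and 78 (0.324%) in the same direction.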

How the results depend on the processing

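The 5 shared loci were 5 with DESeq2's size factors in edgeR and 13 with counts divided by 4. They were 390 in DESeq2, 33, 33 and 36 in limma on log2(FPKM + 0.5), log2(FPKM + 0.1) and log2(FPKM + 1), 1 with no filter on low values, 12 with an FPKM of at least 1 in all 16 libraries, 68 with 4 group means and 1 with no time block. Added after seeing the data, they were 9 without the library highest in lymphocyte markers of each group and 24 with annotated loci only. Leaving out 1 library gave 1 to 80. The 250 loci with an unadjusted p under 0.05 at both times were 156 with the filter in all libraries and 191 to 371 with 1 library left out. The 68 calls at 6 weeks were 438 in DESeq2, 108 in limma on log2(FPKM + 1), 24 without the lymphocyte-rich libraries and 30 to 94 with 1 library left out. The 55 calls at 22 weeks were 784 in DESeq2, 146, 140 and 147 in the 3 limma fits, 12 with no filter, 209 with the filter in all libraries, 318 without the lymphocyte-rich libraries, and 0 (without normal-diet library 2 of 22 weeks) to 429 (without normal-diet library 4 of 22 weeks) with 1 library left out. The 44 loci whose diet effect differed between the times were 476 in DESeq2, 26 with no filter, 26 in limma on log2(FPKM + 0.1), 0 without the lymphocyte-rich libraries and 3 to 74 with 1 library left out. Fewer or more loci and libraries enter some of these fits, and the cause was otherwise not tested. At an unadjusted p under 0.05, limma on log2(FPKM + 0.5) had 2095 loci higher and 1021 lower on Western diet, against 1430 and 1439 in edgeR. Actc1 turned its sign, with log2 fold changes of -0.11 (without Western-diet library 3 of 22 weeks) to 1.61 with 1 library left out.

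Replicate numbers showed no pairing in the values: deviations of same-numbered libraries had correlations of -0.247 to 0.0393, with 0 of 8 over 0.1. Libraries of other numbers had -0.149 to 0.202, with 5 of 24 over 0.1. Tissue that varies between single libraries enters these deviations, so they cannot show whether animals or processing were paired. With the replicate number as a block, edgeR gave 0 shared loci (2129 at an unadjusted p under 0.05), 193 loci with an unadjusted p under 0.05 at both times, 12 at 6 weeks, 0 at 22 weeks and 0 for the difference.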
